A study of Homo sapiens with 4 samples.

Results

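Catalase and the superoxide dismutases were taken as 5 genes by name: SOD1, SOD2 and SOD3, which encode the superoxide dismutases, CCS, which encodes the copper chaperone of SOD1, and CAT, which encodes catalase. They were found under these names among 42067 gene names in the deposited tables, with 7 transcript models in all, and each gene was represented by its model with the most reads over the libraries. RNA came from Huh7, an established human line of hepatocellular carcinoma, grown as 1 line with no second clone or line for comparison. In the treated group the cells received 300 µM hydrogen peroxide (H2O2) for 4 days with fresh medium each day, and in the mock group the medium was changed in the same way for 4 days without it. Each group had 2 libraries, named after the first letter of their titles: H2O2-H and H2O2-Q, and mock-H and mock-Q. What the letters stand for is not stated in the labels. Nothing in the labels says that the libraries came from separate cultures, so the p-values measure the spread between libraries, which may be technical.

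Superoxide dismutases turn superoxide, the radical that leaks from the respiratory chain and is made by NADPH oxidases, into oxygen and H2O2. SOD1 works with copper and zinc in the cytosol and the space between the mitochondrial membranes, SOD2 with manganese in the mitochondrial matrix, and SOD3 with copper and zinc outside the cell. CCS loads copper onto SOD1 and helps to form its disulfide bond. Catalase is a heme enzyme of peroxisomes that splits H2O2 into water and oxygen, and hepatocytes are known for carrying much of it. SOD2 is known as a target of NF-kB, and catalase and SOD2 as targets of FOXO factors.

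The stretches upstream of 3 of the genes are printed because these genes span the range of read counts given further on. They come from RefSeq on GRCh38.p14, run 5′ to 3′ towards the transcription start, and leave out bases that GENCODE v29 assigns to an exon. Capitals mark GC boxes, the letters GGGCGG on either strand, as used by the factor SP1. RefSeq gives SOD2 4 starts, of which the one 7 bases from the GENCODE start of a model in the files was used. The start used lay 9 bases from such a model start for CAT, 110 for SOD3 and 364 for CCS, so the SOD3 and CCS windows do not end at the start of the measured model. The CCS window, all exonic, is not printed. The SOD2 stretch, on the minus strand, is at chr6:159693329-159693491, the CAT stretch, on the plus strand, at chr11:34438684-34438924, and the SOD3 stretch, on the plus strand, at chr4:24795323-24795462.
SOD2: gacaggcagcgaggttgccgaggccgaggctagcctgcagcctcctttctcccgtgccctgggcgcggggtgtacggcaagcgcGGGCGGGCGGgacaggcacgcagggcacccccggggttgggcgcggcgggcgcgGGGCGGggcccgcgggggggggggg
CAT: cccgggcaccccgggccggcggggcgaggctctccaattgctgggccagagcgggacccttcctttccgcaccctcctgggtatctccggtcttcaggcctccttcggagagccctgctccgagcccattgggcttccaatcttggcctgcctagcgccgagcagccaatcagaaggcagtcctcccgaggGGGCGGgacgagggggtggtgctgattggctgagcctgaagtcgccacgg
SOD3: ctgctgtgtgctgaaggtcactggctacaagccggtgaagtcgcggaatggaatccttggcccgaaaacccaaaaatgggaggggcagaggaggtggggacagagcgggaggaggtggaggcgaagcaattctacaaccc

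In the full window of 250 bases before each start, SOD2 had 6 GC boxes, overlapping matches counted, CAT had 1, and SOD3 and CCS had 0. Of 35116 RefSeq windows of that length, 42.6% held at least 1. These windows were 80.8% G and C for SOD2, 68.8% for CAT, 67.2% for CCS and 61.6% for SOD3, against a median of 58.0% over all windows. The TATA box letters TATAAA, held by 10.7% of windows, and the FOXO letters GTAAACA, held by 3.0%, were found on either strand in 0 of these 4 windows. The core of the antioxidant response element, TGACNNNGC on either strand and held by 10.9% of windows, was found once, in the CCS window, as TGACGAAGC. A match or its lack describes these letters in this window and says nothing of binding.

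H2O2-H and H2O2-Q held 83462944 and 86492977 mapped read mates, against 78126878 and 88409567 in mock-H and mock-Q. Hepatic character was checked on 9 hepatocyte and hepatoma markers, all detected, which cannot tell Huh7 from another hepatoma line. The summed level of these markers was 18190 and 10594 CPM, reads scaled to library size with TMM factors, in H2O2-H and H2O2-Q. In mock-H and mock-Q it was 13776 and 5421 CPM, so it was higher in library H of each group. TTR among them went the other way, higher in library Q of each group. The sum was also higher in the H2O2 library of each letter, though the groups overlapped. By treatment, 7 of the 9 had log2 differences above 0 (median of the 9, 0.43) and 0 were called. TTR (−0.31, SE 0.29) and HNF4A (−0.63, SE 0.34) lay below 0, and HNF4A was lower in both H2O2 libraries. In bulk RNA, fewer cells of a type and less RNA per cell cannot be told apart. Summed endothelial markers lay between 2.35 and 3.01 CPM. Fibroblast and stellate markers, mostly COL1A1, summed to 17.4 and 19.0 CPM in H2O2-H and H2O2-Q. In mock-H and mock-Q they summed to 21.7 and 26.2 CPM. The sum was lower in both H2O2 libraries as CCS was, and the part of these markers in the CCS values was not tested. Of the 5 of them tested, 4 had log2 differences below 0, and ACTA2 lay above 0 (0.34, SE 0.41). White blood cell markers, mostly LYZ, summed to 673 and 635 CPM in H2O2-H and H2O2-Q and to 471 and 474 CPM in mock-H and mock-Q, higher in both H2O2 libraries as SOD1 was, and their part in the SOD1 values was not tested. Among the 5 of these tested, 3 had log2 differences above 0, while PTPRC (−0.36, SE 0.91) and CD3E (−1.31, SE 0.58) lay below 0. CD3E was lower in both H2O2 libraries. PTPRC lay between 0.052 and 0.272 CPM and CD3E between 0.059 and 0.175 CPM.

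After 4 days of H2O2 the reads of SOD2, the mitochondrial dismutase, stood at 1.31 times their mock level and those of SOD1, the cytosolic one, at 1.18 times. CAT stood at 1.11 times and SOD3 at 1.01 times, while CCS, the copper chaperone, stood at 0.899 times. None of these differences passed the test described next. The ratio of CCS to SOD1 reads was lower in both H2O2 libraries than in both mock libraries, as were 32.4% of the ratios of other genes to SOD1, and its difference did not pass a test either. All 5 genes had reads in every library and passed the filter on low counts. Across 27514 tested genes the comparison of H2O2 with mock called 0 genes (edgeR quasi-likelihood test, adjusted p at 5%, percent called 0), and 0 of the 5 genes were called. At an unadjusted p under 0.05 it held 1898 genes, 6.9% of those tested, and 0 of the 5. Of the same 27514 genes, DESeq2 called 139 and limma on log2(FPKM + 1) called 0, with 0 of the 5 among them in either.

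Levels of different genes were set against each other per length, as CPM divided by the transcript length in kilobases. SOD2 is given here for its second model, NM_001024465, of 990 bases, because the GENCODE match of the model with the most reads is 14266 bases long and the length used by the authors is not stated. SOD2 then lay at 246 and 329 CPM per kilobase in H2O2-H and H2O2-Q and at 191 and 257 in mock-H and mock-Q. SOD1 followed with 228 and 229 in H2O2-H and H2O2-Q and 210.2 and 178 in mock-H and mock-Q. On this scale SOD2 exceeded SOD1 in 3 of 4 libraries, mock-H being the exception. With the 14266 bases of the model with the most reads, SOD2 would lie at 20.4 and 26.5 CPM per kilobase in H2O2-H and H2O2-Q and at 15.2 and 20.5 in mock-H and mock-Q, below SOD1, CAT and CCS. In the deposited FPKM, SOD1 had 1956 and 2205 in H2O2-H and H2O2-Q and 1801 and 1686 in mock-H and mock-Q. The 990-base model of SOD2 had 1680 and 2533 FPKM in H2O2-H and H2O2-Q and 1314 and 1945 in mock-H and mock-Q, above SOD1 in the Q libraries and below it in the H libraries. The model with the most reads had 1354 and 1987 FPKM in H2O2-H and H2O2-Q and 1002 and 1533 in mock-H and mock-Q, below SOD1 in all 4. The order of SOD1 and SOD2 thus depended on the model and its length and is not settled by these values.

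Catalase lay at 71.9 and 43.5 CPM per kilobase in H2O2-H and H2O2-Q and at 62.4 and 41.3 in mock-H and mock-Q. CCS lay at 41.0 and 42.2 in H2O2-H and H2O2-Q and at 50.0 and 42.6 in mock-H and mock-Q. On this scale catalase exceeded CCS in 3 of 4 libraries, mock-Q being the exception, and the ranges of these neighbours overlapped. In the deposited FPKM, catalase had 1273 and 869 in H2O2-H and H2O2-Q and 1110 and 811 in mock-H and mock-Q. CCS had 628 and 727 FPKM in H2O2-H and H2O2-Q and 764 and 721 in mock-H and mock-Q. In FPKM catalase thus exceeded CCS in all 4 libraries, and the ranges did not overlap. SOD3, the extracellular enzyme, was at 0.879 and 1.298 in H2O2-H and H2O2-Q and at 0.900 and 1.25 in mock-H and mock-Q, below the other 4 genes in every library.

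**Figure D1:**
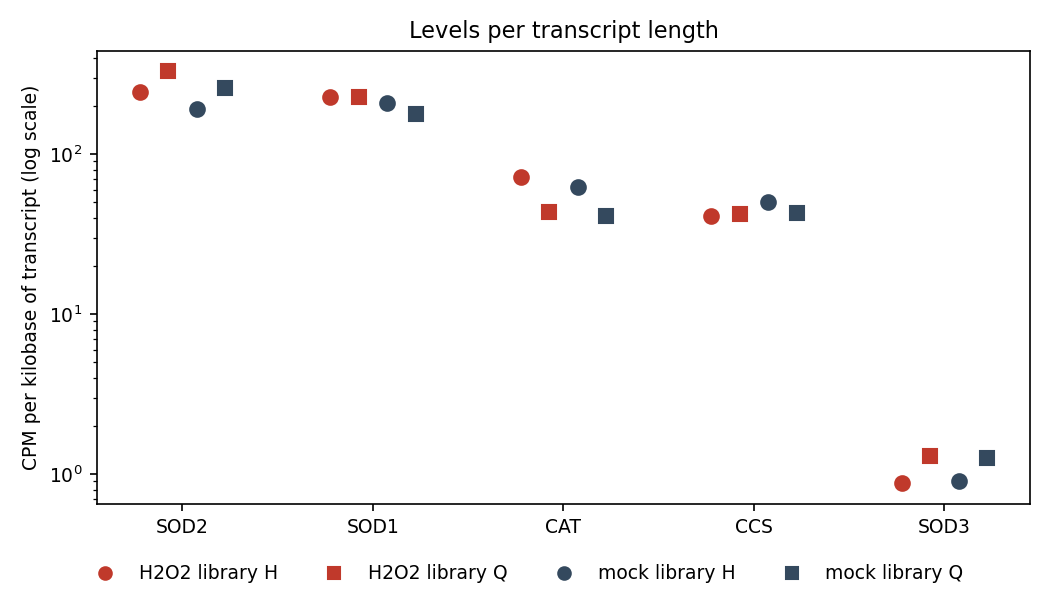
CPM per kilobase (vertical log axis) of each gene, with 1 point for each H2O2 (red) and mock (dark) library, circles for H and squares for Q. SOD2, for its 990-base model, and SOD1 lie between 178 and 329, CAT and CCS between 41.0 and 71.9, and SOD3 between 0.879 and 1.298.

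SOD1, on chromosome 21, had 22553 and 26421 reads in H2O2-H and H2O2-Q and 19670 and 20871 reads in mock-H and mock-Q. This was 220.7 and 220.9 CPM in H2O2 and 203 and 172 CPM in mock. Both H2O2 libraries lay above both mock libraries, which was also so for 18.1% of tested genes. The means were 220.8 ± 0.119 CPM in H2O2 and 188 ± 21.8 CPM in mock (SD, n = 2 each). The fold was 1.18, a log2 difference of 0.23 (SE 0.20, 95% interval −0.27 to 0.74), which did not pass the test (edgeR, adjusted p = 0.803). The log2 difference was 0.12 between the H libraries and 0.36 between the Q libraries, and mock-Q stood lowest of the 4 libraries. GENCODE lists the processed pseudogenes SOD1P1, SOD1P2 and SOD1P3, and how reads shared with them were counted is not stated.

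SOD2, on chromosome 6, had the most reads of the 5 genes, 29742 and 45188 in H2O2-H and H2O2-Q and 20942 and 35473 in mock-H and mock-Q. In CPM these were 291 and 378 in H2O2-H and H2O2-Q, and 216 and 293 in mock-H and mock-Q. The groups overlapped, since H2O2-H lay just under mock-Q, but each H2O2 library lay above the mock library of its own letter. The means were 334 ± 61.3 CPM in H2O2 and 254 ± 54.2 CPM in mock (SD, n = 2 each). With a fold of 1.31 and a log2 difference of 0.39 (SE 0.26, 95% interval −0.28 to 1.07) it did not pass (edgeR, adjusted p = 0.775). Among tested genes of at least 10 CPM, 23.7% differed by as much or more in either direction. The log2 difference was 0.43 between the H libraries and 0.37 between the Q libraries. Leaving out mock-H gave 0.20, leaving out H2O2-Q gave 0.22, leaving out H2O2-H gave 0.57 and leaving out mock-Q gave 0.63.

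The tables held 3 SOD2 models, which share most of their reads. The second, NM_001024465, had 83.6% and 86.3% of the reads of the first, NM_000636, in H2O2-H and H2O2-Q and 87.6% and 87.0% in mock-H and mock-Q. The shortest, NM_001024466, had 68.7% and 71.7% in H2O2-H and H2O2-Q and 73.4% and 72.2% in mock-H and mock-Q. Both shares were lower in both H2O2 libraries than in either mock library. Between the Q libraries the gaps were small, 86.3% in H2O2-Q against 87.0% in mock-Q, and 71.7% against 72.2%. Both shares are taken over the reads of NM_000636, and the models overlap in reads, so the shares are not separate observations. The pattern was noted after the values were seen and was not tested. How often other genes with several models separate in this way was not counted. GENCODE lists a processed pseudogene, SOD2P1, and the same limit on shared reads applies.

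SOD3, on chromosome 4, had 137 and 237 reads in H2O2-H and H2O2-Q and 133 and 232 reads in mock-H and mock-Q. Exact Poisson 95% intervals, which cover counting error only, were 115 to 162 and 208 to 269 reads in H2O2-H and H2O2-Q, and 111 to 158 and 203 to 264 reads in mock-H and mock-Q. These intervals take each counted read as independent. The count totals over genes exceeded the mapped mates of each library, so the intervals may be too narrow. In CPM the gene lay at 1.34 and 1.98 in H2O2 and at 1.37 and 1.91 in mock. By these intervals the libraries of 1 letter were within counting error of each other across treatment. Q lay above H in both groups with no overlap of the intervals in reads or in CPM. The log2 difference between treatments was 0.01 (SE 0.34, 95% interval −0.86 to 0.89; edgeR, adjusted p = 0.995), an interval that holds folds between 0.552 and 1.85. Leaving out mock-H gave −0.20, leaving out H2O2-Q gave −0.27, and leaving out mock-Q or H2O2-H gave 0.27 each.

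**Figure D2:**
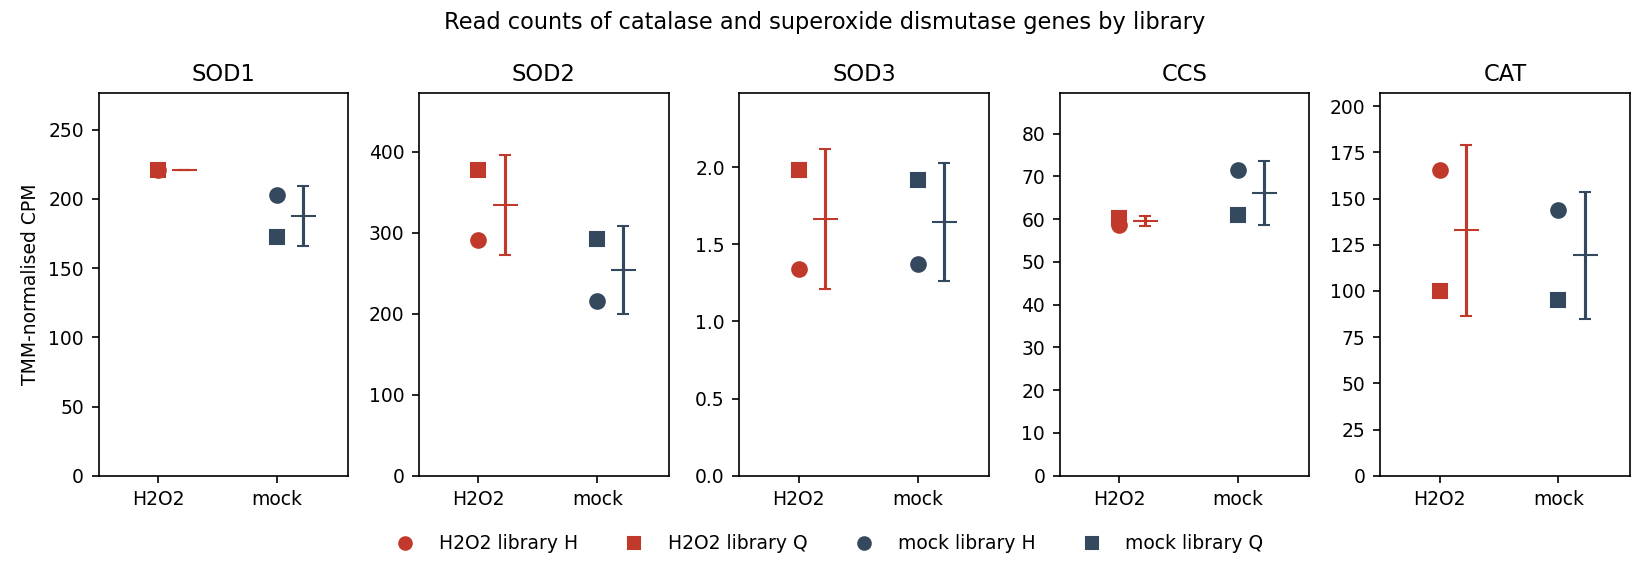
TMM-normalised CPM (vertical axes from 0, a scale for each gene) in H2O2 (red, left) and mock (dark, right) libraries, circles for H and squares for Q, with the mean and SD of 2 libraries beside the points. SOD1 lies higher and CCS lower in both H2O2 libraries, while SOD2, SOD3 and CAT overlap between groups and keep the same order of H and Q in both.

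CCS, on chromosome 11, had 5996 and 7220 reads in H2O2-H and H2O2-Q and 6926 and 7378 reads in mock-H and mock-Q. In CPM it lay at 58.7 and 60.4 in H2O2-H and H2O2-Q and at 71.5 and 60.9 in mock-H and mock-Q. Both H2O2 libraries lay below both mock libraries, by little in the case of library Q, and 21.3% of tested genes were separated in this direction. The means were 59.5 ± 1.19 CPM in H2O2 and 66.2 ± 7.50 CPM in mock (SD, n = 2 each). The log2 difference was −0.15 (SE 0.19, 95% interval −0.63 to 0.32), a fold of 0.899, and did not pass (edgeR, adjusted p = 0.855). Between the H libraries it was −0.29 and between the Q libraries −0.01. The gene shares 263 exon bases with CCDC87 on the opposite strand, for which 186 and 350 reads were counted in H2O2-H and H2O2-Q and 237 and 348 in mock-H and mock-Q. Whether counting used strand is not stated, so reads from that stretch cannot be told apart.

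CCS was also set against its client. For each SOD1 read there were 0.266 and 0.273 CCS reads in H2O2-H and H2O2-Q, and 0.352 and 0.354 in mock-H and mock-Q. This ratio needs no scaling between libraries, and its libraries lay close together within each group and apart between the groups. On the log2 scale its mean was −1.89 ± 0.028 in H2O2 and −1.50 ± 0.0040 in mock (SD, n = 2 each), a difference of −0.39. The difference was −0.41 between the H libraries and −0.37 between the Q libraries. In a test of the ratios to SOD1 of 10938 genes of at least 10 CPM, CCS among them, which was added after the values were seen, the CCS difference did not pass (limma, SE 0.25, unadjusted p = 0.157, adjusted p = 0.775). That test called 0 of the 10938 genes (percent called 0), and 792, or 7.24%, had an unadjusted p under 0.05. SOD1 itself lay higher in H2O2, and of the 10938 genes, 32.4% had both H2O2 ratios to SOD1 below both mock ratios, and 18.4% had this and a difference at or below that of CCS. The median difference over the 10938 genes was −0.16.

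The other ratios to SOD1 overlapped between the groups. SOD2 had 1.32 and 1.71 reads for each SOD1 read in H2O2-H and H2O2-Q, and 1.06 and 1.70 in mock-H and mock-Q. Its log2 ratio differed by 0.16 between groups, less than the SD of 0.48 between mock libraries. Catalase had 0.750 and 0.453 reads for each SOD1 read in H2O2-H and H2O2-Q, and 0.708 and 0.552 in mock-H and mock-Q. Its log2 ratio differed by −0.10, against an SD of 0.51 between H2O2 libraries.

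**Figure D3:**
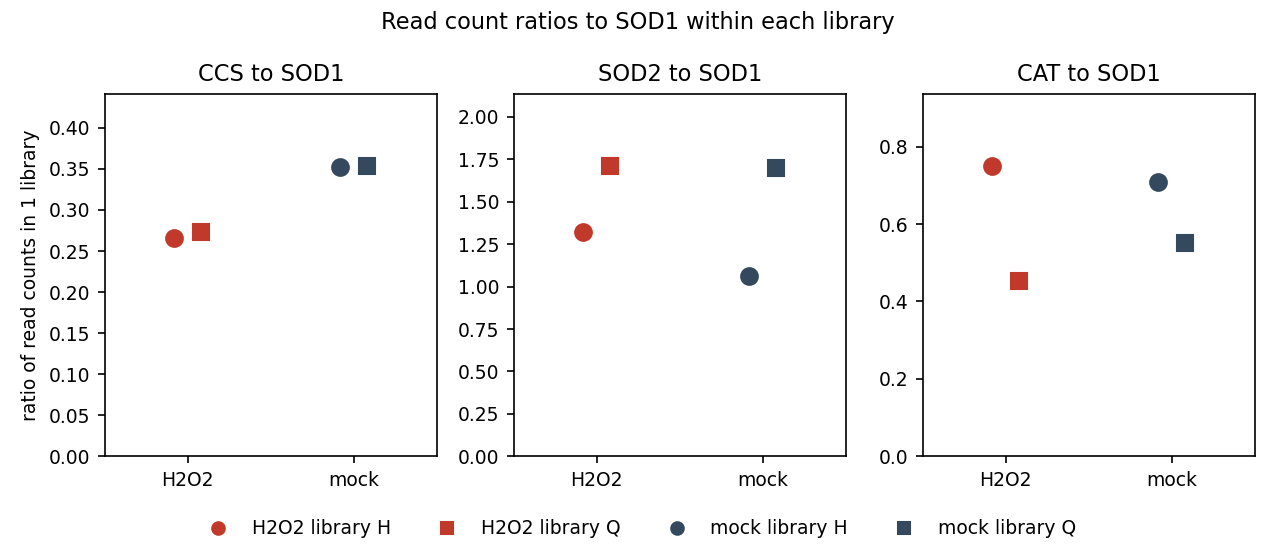
Reads of CCS, SOD2 and CAT for each SOD1 read in the same library (vertical axes from 0), for H2O2 (red, left) and mock (dark, right) libraries, circles for H and squares for Q. CCS to SOD1 is 0.266 and 0.273 in H2O2 and 0.352 and 0.354 in mock, while the other ratios overlap.

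Catalase, encoded by CAT on chromosome 11, had 16910 and 11980 reads in H2O2-H and H2O2-Q and 13923 and 11517 reads in mock-H and mock-Q. In CPM it lay at 165 and 100.2 in H2O2-H and H2O2-Q and at 144 and 95.1 in mock-H and mock-Q. The groups overlapped, and library H was the higher in each. The means were 133 ± 46.2 CPM in H2O2 and 119 ± 34.4 CPM in mock (SD, n = 2 each). The log2 difference was 0.15 (SE 0.34, 95% interval −0.71 to 1.02), and it did not pass (edgeR, adjusted p = 0.919). It was 0.20 between the H libraries and 0.08 between the Q libraries. Leaving out H2O2-H turned it to −0.25 and leaving out mock-Q to −0.12, so its sign rested on single libraries. The summed hepatocyte markers given above were likewise higher in library H of each group, and their part in the catalase values was not tested.

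For 3 of the 5 genes the letter of the library went, in both groups, with a larger difference than the treatment did, or one about as large. Relative to library H, catalase in library Q stood at log2 −0.72 in H2O2 and −0.60 in mock, SOD3 at 0.56 in H2O2 and 0.48 in mock, and SOD2 at 0.38 in H2O2 and 0.44 in mock. SOD1 and CCS stood at 0.0011 and 0.04 in H2O2, less than their treatment differences of 0.23 and −0.15. In mock they stood at −0.24 and −0.23, about as large for SOD1 and larger for CCS. The median size of this difference over genes of at least 10 CPM was 0.24 in H2O2 and 0.31 in mock.

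**Figure D4:**
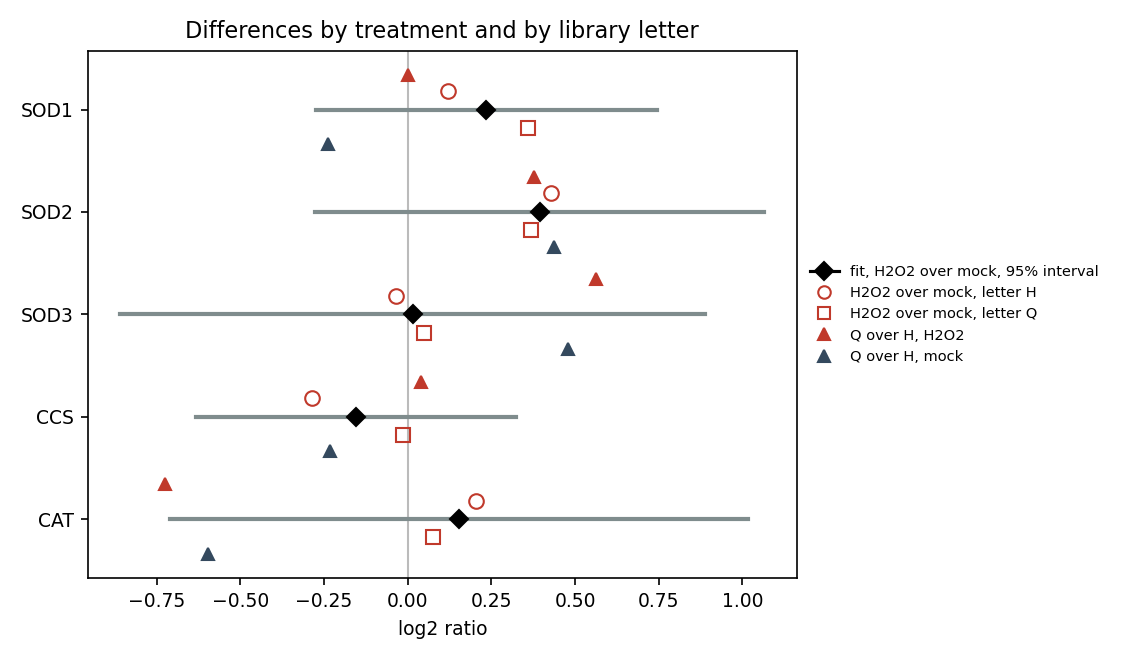
Log2 ratios (horizontal axis) of each gene: the fitted H2O2 over mock value with its 95% interval (diamond and line), H2O2 over mock between libraries of the same letter (open circle and square), and library Q over H within the H2O2 and mock groups (red and dark triangles). All 5 intervals include 0, and the triangles of CAT, SOD3 and SOD2 lie farther from 0 than, or about as far as, their diamonds. For SOD1 and CCS this is so of the mock triangle only.

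Other genes of the same chemistry were read from the same fit, in which the median of all tested genes was −0.03 and that of genes of at least 10 CPM was 0.06 on the log2 scale. Of the 12 peroxiredoxins and glutathione peroxidases, which reduce the H2O2 that dismutases make, 0 passed in either direction and 10 had values above 0, with a median of 0.23. GPX3, the glutathione peroxidase of plasma, had the highest value, with 107 and 107 CPM in H2O2-H and H2O2-Q and 89.2 and 69.6 CPM in mock-H and mock-Q (log2 difference 0.43, SE 0.21). GPX8, of the endoplasmic reticulum, had the lowest at −0.48 (SE 0.83) and was higher in both Q libraries, with 1.95 and 7.02 CPM in H2O2-H and H2O2-Q and 2.60 and 9.92 CPM in mock-H and mock-Q.

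Copper reaches SOD1 and SOD3 through importers, chaperones and pumps. Of 10 genes of copper delivery, 0 passed in either direction and 8 had values above 0, with a median of 0.17. The list was not limited to delivery to the dismutases. SCO1, which brings copper to cytochrome c oxidase, had the highest value, with 55.0 and 54.3 CPM in H2O2-H and H2O2-Q and 35.4 and 43.0 CPM in mock-H and mock-Q (log2 difference 0.48, SE 0.20; edgeR, adjusted p = 0.719). The copper pump ATP7A had the lowest, at −0.06 (SE 0.26). SLC31A1, the main copper importer, was named after its value was seen and lay at 0.09 (SE 0.19).

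Manganese, the metal of SOD2, is carried by the 6 genes of the next list, of which 0 passed in either direction. Their median was −0.10. The metal importers SLC39A8 (log2 difference 0.28, SE 0.24) and SLC39A14 (0.19, SE 0.20) were the 2 above 0. The manganese exporter SLC30A10 had the lowest value (−0.56, SE 0.50), with 29.2 and 25.5 CPM in H2O2-H and H2O2-Q and 59.9 and 20.7 CPM in mock-H and mock-Q. Its mock libraries lay on either side of both H2O2 libraries.

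Catalase enters peroxisomes through the receptor PEX5 and its docking and recycling partners. Of 16 genes of peroxisome biogenesis and import, 0 passed in either direction and 11 had values above 0, with a median of 0.10. The highest was PEX7, the receptor for the second import signal, at 0.46 (SE 0.36), and the lowest was PEX11A, of peroxisome division, at −0.46 (SE 0.65). Of 10 oxidases that make H2O2, 8 were tested and HAO1 and DDO had too few reads. The 8 had a median of 0.06 and 0 passed. ACOX2, of bile acid side-chain oxidation in peroxisomes, had 17.2 and 8.59 CPM in H2O2-H and H2O2-Q and 9.93 and 4.30 CPM in mock-H and mock-Q (log2 difference 0.86, SE 0.53). HAO2 had the lowest value, −0.79 (SE 0.76), at under 1 CPM in each library.

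Of 12 regulators tied to these genes, 0 passed in either direction, and their median was 0.13. PPARGC1A, a coactivator known to raise SOD2 and CAT transcription, had the highest value, with 2.43 and 3.94 CPM in H2O2-H and H2O2-Q and 1.60 and 1.99 CPM in mock-H and mock-Q (log2 difference 0.83, SE 0.34; edgeR, adjusted p = 0.719). SIRT3, the mitochondrial deacetylase that activates SOD2, had the lowest value, −0.27 (SE 0.33).

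**Figure D5:**
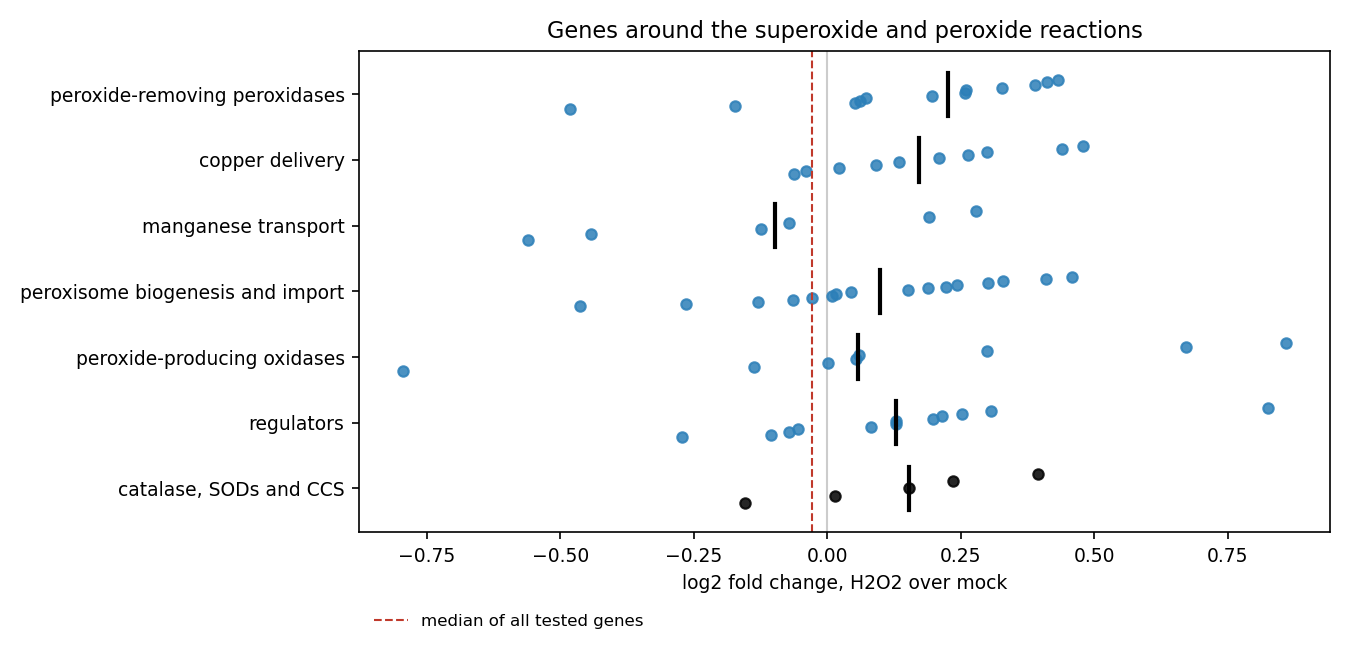
Log2 fold changes of H2O2 over mock (horizontal axis) for each tested gene (points) of 6 lists and for the 5 genes described here (black points), with the list median as a black bar and the median of all tested genes, −0.03, as a dashed line. The list medians lie between −0.10 for manganese transport and 0.23 for peroxidases.

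Likeness of pattern was measured as the Euclidean distance between log2 CPM centred on the mean of the 4 libraries, among genes of at least 10 CPM. DNPH1 and SMIM8 were nearest to CAT (distances 0.029 and 0.040), C16orf87 and SHPRH to SOD1 (0.033 and 0.041), and TBCEL and GPATCH4 to SOD2 (0.035 and 0.042). RBM48 and ZSCAN18 were nearest to SOD3 (0.033 and 0.038), and RAMP1 and PDIA3 to CCS (0.033 and 0.042). With 4 libraries such closeness is common: between 320 genes, for SOD2, and 1298 genes, for SOD1, lay within a distance of 0.25.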

How the data were processed

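Per the file headers, the deposited tables gave a read count and an FPKM value (reads scaled to length and depth by the authors) for each of 58146 transcript models per library. Per the submitters' processing notes, CASAVA, Bowtie 0.12.2, TopHat 1.3.3 and Cuffdiff were used, with builds mm8, hg19 and GRCh37 named without roles. The counting program and annotation are not stated there. Alignment summaries gave the mapped mates of each library.

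Models of a gene repeat reads, so each gene was represented by its model of the highest total count. The totals with 1 model per gene ran between 103851326 and 113082498. In each library the total exceeded the mapped mates, so a read could count more than once. Genes were kept by edgeR's filterByExpr (minimum count 10), scaled by TMM (factors 0.904, 1.06, 0.933 and 1.12 in H2O2-H, H2O2-Q, mock-H and mock-Q) and tested two-sided with edgeR 4.0.16, treatment as the sole term, and Benjamini-Hochberg adjustment at 5% over all genes. The fit had 2 residual and 3.20 prior degrees of freedom. Intervals are the log2 difference plus or minus the t quantile times the SE. Log2 ratios to SOD1 were tested with limma on genes of at least 10 CPM. Alternatives used limma 3.58.1 and DESeq2 1.42.0. Both tests were tried on simulated counts. The simulated spread between libraries was smaller than that of these data (common biological coefficient of variation 0.308), so the trial does not show their power here.

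The members and lists were chosen with earlier results of these data known. Named beside the members were the highest and lowest gene of each list, and the 2 genes nearest to each member in pattern. Lengths came from GENCODE v29, matched by RefSeq accession, and exon-free promoter bases from RefSeq, with no entry used for SOD1.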

Additional observations from a re-analysis of the deposited data

How the results depend on the processing

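Leaving out each library in turn gave between 0 and 13 called genes, the 13 without mock-Q. The main test called 0, DESeq2 139 and edgeR without a filter on low counts 9, and the cause was not tested. Same-letter libraries deviated together from their group means (correlation 0.44 over 27514 genes), but the labels do not say that a letter marks a shared culture or day. With the letter as a replicate block the test called 45 of 27514 genes, of which 0 were among the 5 described here (edgeR, adjusted p = 0.197 for SOD2, log2 difference 0.40). At an unadjusted p under 0.05 the block gave 5222 genes, or 19.0% of those tested, among them SOD2 (edgeR, unadjusted p = 0.0228) and no other of the 5.

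None of the 5 genes was called under the 13 alternatives. SOD1 (0.12 to 0.37), SOD2 (0.20 to 0.63) and CCS (−0.27 to −0.02) kept their sign in all 13. Catalase ranged between −0.25 and 0.49 with a library left out, with −0.12 without mock-Q and −0.25 without H2O2-H. SOD3 ranged between −0.27 and 0.27 with a library left out, and turned to −0.0098 and −0.019 with limma on log2(FPKM + 1) and log2(FPKM + 0.1) and to −0.0023 with a filter on FPKM. The log2 ratio of CCS to SOD1 differed by between −0.41 and −0.37 in all 8 alternatives, 1 of them added after the data were seen. Summing the models and the limma fit could not move it. Both genes have 1 model, and limma estimates the same difference. For catalase to SOD1 the difference was 0.079 without mock-H and 0.26 without H2O2-Q, against −0.46 without H2O2-H. For SOD2 to SOD1 it was −0.18 without mock-H and −0.029 without H2O2-Q, against 0.50 without mock-Q, so the sign of both rested on single libraries. Counting error, with counted reads taken as independent, was largest for SOD3, with an SE between 6.50% and 8.67% of a library's count. For the other genes its SE was at most 1.29%.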

Other observations

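The deposited FPKM values did not follow reads per length across these genes. SOD1, whose transcript has 5 exons, was listed at 1956 and 2205 FPKM in H2O2-H and H2O2-Q and at 1801 and 1686 FPKM in mock-H and mock-Q. SOD3, with 2 exons, was listed at 1.50 and 2.35 FPKM in H2O2-H and H2O2-Q and at 1.62 and 2.24 FPKM in mock-H and mock-Q. The distance between these genes is wider in FPKM than in the CPM per kilobase of the same libraries, and the reason was not tested.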
